A study of Mus musculus with 17 samples.

Results

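The genes described here are 9 members of the type I interferon system, taken by symbol from a fixed list: the ligand Ifnb1, the receptor chains Ifnar1 and Ifnar2, the transcription factors Stat2, Irf9, Irf7 and Irf3, and the RNA sensors Ddx58 (RIG-I) and Ifih1 (MDA5). All 9 were found among the 33440 genes of the Ras-transformed set and the 37576 genes of the immortalized set. In Ras-transformed fibroblasts labelled Usp28 -/-, Stat2, Irf9, Irf7, Ddx58 and Ifih1 were 3.77-fold to 19.6-fold higher than in wild type. In Ras-transformed cells labelled +/-, each of those 5 genes was 1.58-fold to 3.00-fold lower than in wild type, while both receptor chains were higher. Of these 7 calls in +/-, those of Irf9, Irf7 and Ifnar2 held when the assumed spread between libraries (the dispersion) was doubled, and those of Stat2, Ddx58, Ifih1 and Ifnar1 did not. Over all tested genes, 27.6% were called in Ras -/- (15.2% higher) and 34.1% in Ras +/- (17.5% higher and 16.7% lower). Of the 8 members that could be tested, 0 passed the test in Ras-transformed wild-type cells with a USP28 vector. In immortalized cells of either mutant genotype, 0 passed as well. Among all tested genes, 1.09% were called with the USP28 vector, 4.21% in immortalized -/- and 8.25% in immortalized +/-, so 0 of 8 is near those shares. The level of the mouse Usp28 gene was no higher with the USP28 vector than with GFP, which does not show whether USP28 was overexpressed.

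Type I interferons are secreted proteins that cells make after their RNA or DNA sensors detect foreign nucleic acid. RIG-I and MDA5 bind RNA in the cytosol and signal through the adaptor Mavs to kinases that activate Irf3, which is constitutively present, and Irf7, whose gene is itself induced by interferon. Irf3 and Irf7 switch on interferon genes such as Ifnb1. Secreted interferon binds the receptor formed by Ifnar1 and Ifnar2, and Stat2 and Irf9 then act in the complex ISGF3, which binds the interferon-stimulated response element in the promoters of interferon-stimulated genes.

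Fibroblasts were derived from C57bl/6 embryos at stage E13.5, and 17 libraries of poly(A)-selected RNA were sequenced. All of them came from cells immortalized with a retroviral short hairpin RNA against p19ARF, so no group is without that treatment. The Ras set holds Usp28 -/- cells, +/- cells and +/+ cells, each with HRasG12V and a GFP vector, and +/+ cells with HRasG12V and a USP28 vector in place of GFP, with 2 libraries per group. The immortalized set holds -/-, +/- and +/+ cells without Ras, with 3 libraries per group. The design text calls the immortalized triplicates biological and does not say this of the Ras duplicates. How many embryos a group rests on is not given in the sources used here, so p-values of the Ras set measure a spread that may be technical. Libraries were made with either of 2 kits, and the labels do not assign a kit to a library.

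Only the authors' comparisons of each group with +/+ were used, and they hold no value for a single library. Levels are therefore given per group, as reads scaled to a depth of 1000000 (RPM), over the pooled reads of the group. Depth per group was 11.4 to 13.95 M reads (M, 1000000), at which 1 read corresponds to 0.0717 to 0.0880 RPM. Each standard error (SE) is implied by a single dispersion that was fitted to all genes of a comparison and is not a spread measured for the gene. A gene was tested where its mean level over the compared groups was at least 1 RPM, and it was called changed where its p, adjusted over all tested genes, was under 0.05. The fibroblast identity of the cells was checked with 9 marker genes, of which 8 were at 1 RPM or more in every Ras group and 9 in every immortalized group. Thy1 was the exception, at 0 to 0.502 RPM in the Ras groups. The other markers passed this bar at unlike levels, with Pdgfrb at 173.6 RPM in Ras -/-, 7.06 RPM in Ras +/- and 54.9 RPM in Ras +/+. Usp28 itself was at 14.8 RPM in Ras -/-, 18.6 RPM in Ras +/-, 26.4 RPM in Ras +/+ with USP28 and 26.5 RPM in Ras +/+, and at 13.3, 9.96 and 16.5 RPM in immortalized -/-, +/- and +/+. No group lacked Usp28 reads, the part of the gene that was deleted is not given in the sources used here, and the level of the mouse gene was no higher with the USP28 vector than with GFP. Whether transcripts of the vector would be counted at the mouse gene was not examined, so this level does not show whether USP28 was overexpressed.

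The motif to which ISGF3 binds has as its core the 4 bases GAAA, any 2 bases, and GAAA again. This core was searched on both strands in the RefSeq promoter windows of the members (GRCm38.p6, from 250 bases before to 50 bases after each start site), and all 9 members had at least 1 window. The core was found in the windows of Stat2, Ddx58 and Ifih1, and 3.44% of all 32851 windows hold it. The stretches around these matches are shown because they lie at 3 of the 5 genes that were higher in Ras -/-. Each is written 5′ to 3′ on the strand of its gene, with the motif in capitals. In Stat2 and Ddx58 the motif lies on the opposite strand, so that it appears as its reverse complement.
Stat2, chr10:128270266-128270295, plus strand: cgcaccctggTTTCAGTTTCctttccctag
Ddx58, chr4:40239804-40239833, minus strand: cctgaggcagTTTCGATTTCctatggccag
Ifih1, chr2:62646206-62646233, minus strand: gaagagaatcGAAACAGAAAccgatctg
Counted from the start site, the match lies at -222 to -213 in Stat2, at 3 to 12 in Ddx58 and at 33 to 42 in Ifih1, so that those of Ddx58 and Ifih1 lie inside the transcript. The Ifih1 stretch stops where its window ends. The core was not among the letters of the windows of Irf9, Irf7, Irf3, Ifnar1, Ifnar2 and Ifnb1. A second motif, the gamma-activated sequence TTCNNNGAA, which reads the same on both strands, was found in Ifnar1 and Ifnar2 alone, against 8.30% of all windows.

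The ligand Ifnb1 encodes interferon beta, the type I interferon that fibroblasts are known to secrete. Its promoter carries the well-studied enhancer to which Irf3 and Irf7 bind, and the 70 bases around it are shown because its GAAA repeats differ in spacing from the core searched above. The 6 GAAA runs are in capitals.
Ifnb1, chr4:88522885-88522954, minus strand: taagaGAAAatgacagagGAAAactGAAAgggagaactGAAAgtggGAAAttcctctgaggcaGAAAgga
This stretch runs from -160 to -91, counted from the start site. Ifnb1 had 1 read in Ras -/- (0.0717 RPM), 0 reads in Ras +/-, 1 read in Ras +/+ with USP28 (0.0745 RPM) and 0 reads in Ras +/+. It had 0 reads in each of the 3 immortalized groups. A count of 0 allows up to 3 reads, which is 0.227 to 0.264 RPM in the groups concerned. With at most 1 read in a group, a difference in Ifnb1 was not detectable at this depth, and the gene was not tested. Of 11 further ligand genes listed, 7 were in the tables. They had 0 reads in every Ras group, and the only read among the immortalized groups was 1 of Ifne in -/- cells.

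The receptor chain Ifnar1 was at 61.7 RPM in Ras -/-, 76.5 RPM in Ras +/-, 50.7 RPM in Ras +/+ with USP28 and 51.0 RPM in Ras +/+. In the immortalized set it was at 71.3 RPM in -/-, 75.1 RPM in +/- and 81.5 RPM in +/+. Ras +/- cells were highest in the Ras set, and the immortalized groups lay close together. Ifnar1 was higher in Ras +/- than in Ras +/+ (log2 ratio 0.58, SE 0.22, adjusted p = 0.0245), a call that the authors' deposited adjusted p of 0.0523 would not give. The log2 ratio of Ras -/- over Ras +/+ was 0.27 (95% interval -0.16 to 0.71, adjusted p = 0.388).

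Ifnar2, the second chain, was at 45.7 RPM in Ras -/-, 73.2 RPM in Ras +/-, 34.0 RPM in Ras +/+ with USP28 and 33.4 RPM in Ras +/+. It was at 39.0 RPM in immortalized -/-, 50.4 RPM in immortalized +/- and 48.5 RPM in immortalized +/+. Again Ras +/- stood highest, and the USP28 and GFP groups of Ras +/+ cells were alike in level. Ifnar2 was 2.19-fold higher in Ras +/- (log2 ratio 1.13, SE 0.22, adjusted p = 3.41e-06). In Ras -/- its log2 ratio over +/+ was 0.45 (SE 0.23, adjusted p = 0.126). In the annotation used here, 315 of the 3329 exon bases of Ifnar2 are shared on the same strand with the gene Gm21970, whose reads in that stretch cannot be told from those of Ifnar2.

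**Figure D1:**
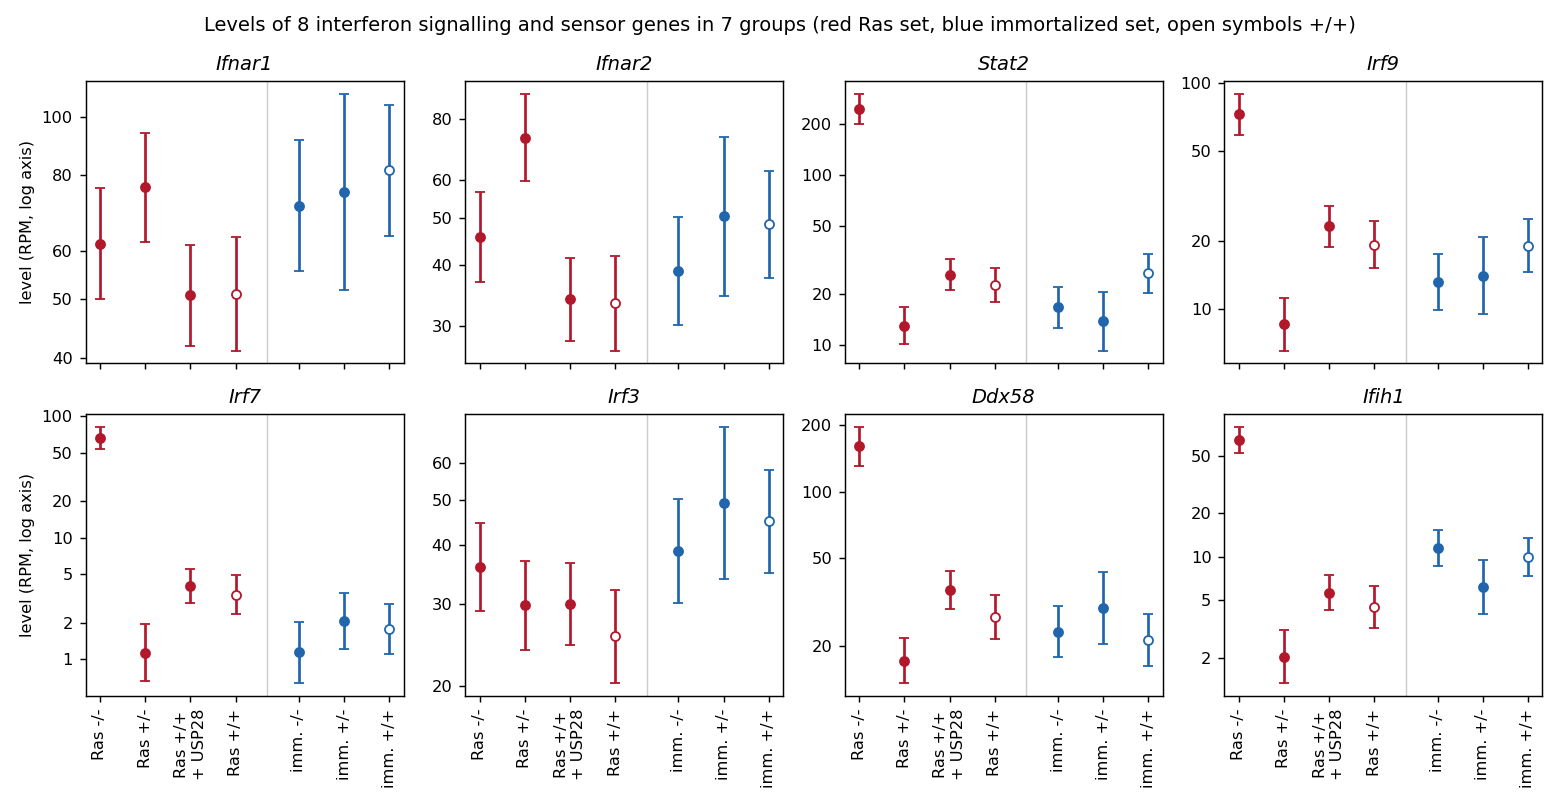
Level of each tested gene in the 7 groups (RPM, log axis; the 3 immortalized groups are marked imm.), with bars for the 95% interval from the implied SE of each group. In Stat2, Irf9, Irf7, Ddx58 and Ifih1 the Ras -/- group stands above and the Ras +/- group below the other Ras groups, which is not so in Ifnar1, Ifnar2 and Irf3.

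Stat2 encodes the subunit of ISGF3 that is activated by type I interferon receptors. It was at 244.2 RPM in Ras -/-, 13.0 RPM in Ras +/-, 26.0 RPM in Ras +/+ with USP28 and 22.6 RPM in Ras +/+. In the immortalized set it was at 16.7 RPM in -/-, 13.8 RPM in +/- and 26.4 RPM in +/+. Ras -/- cells were far above every other group, and each mutant group other than Ras -/- was below its wild type. Stat2 was 10.8-fold higher in Ras -/- than in Ras +/+ (log2 ratio 3.43, SE 0.23, adjusted p = 2.73e-44) and 1.74-fold lower in Ras +/- (log2 ratio -0.80, SE 0.25, adjusted p = 0.00670). In the immortalized set the log2 ratios were -0.66 in -/- (SE 0.28) and -0.93 in +/- (SE 0.40), with adjusted p of 0.217 and 0.190, and they did not pass the test.

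Irf9, the subunit of ISGF3 that recognises the DNA motif, was at 72.7 RPM in Ras -/-, 8.56 RPM in Ras +/-, 23.2 RPM in Ras +/+ with USP28 and 19.3 RPM in Ras +/+. It was at 13.1 RPM in immortalized -/-, 14.0 RPM in immortalized +/- and 19.0 RPM in immortalized +/+. The order of the Ras groups was that of Stat2. Irf9 was 3.77-fold higher in Ras -/- (log2 ratio 1.91, SE 0.23, adjusted p = 1.31e-14) and 2.25-fold lower in Ras +/- (log2 ratio -1.17, SE 0.26, adjusted p = 6.11e-05). Its annotated exons share 123 of 5386 bases with Rnf31 on the same strand, and Rnf31 was at 42.6 RPM in Ras -/- and 24.0 RPM in Ras +/+ (log2 ratio 0.83).

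Irf7, the interferon-inducible factor that amplifies interferon production, was at 66.7 RPM in Ras -/-, 1.14 RPM in Ras +/-, 4.02 RPM in Ras +/+ with USP28 and 3.41 RPM in Ras +/+. In the immortalized set it was at 1.14 RPM in -/-, 2.05 RPM in +/- and 1.78 RPM in +/+. Outside Ras -/- the gene was near the level needed for a test, and the Ras +/- value rests on 15 reads. Irf7 was 19.6-fold higher in Ras -/- (log2 ratio 4.29, SE 0.31, adjusted p = 1.45e-46), the largest fold among the members, and 3.00-fold lower in Ras +/- (log2 ratio -1.59, SE 0.48, adjusted p = 0.00623). Irf7 shares 45 exon bases with Phrf1 on the opposite strand, and the sources used here do not say that reads were counted by strand. Phrf1 was at 116.5 RPM in Ras -/- and 113.8 RPM in Ras +/+.

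Irf3, the constitutive counterpart of Irf7, was at 35.9 RPM in Ras -/-, 29.7 RPM in Ras +/-, 29.9 RPM in Ras +/+ with USP28 and 25.5 RPM in Ras +/+. It was at 38.9 RPM in immortalized -/-, 49.3 RPM in immortalized +/- and 45.0 RPM in immortalized +/+. The groups of each set lay close together. The log2 ratio over Ras +/+ was 0.49 in Ras -/- (95% interval 0.03 to 0.95, adjusted p = 0.106) and 0.22 in Ras +/- (95% interval -0.24 to 0.68, adjusted p = 0.528).

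Ddx58, the sensor RIG-I, was at 160.8 RPM in Ras -/-, 17.1 RPM in Ras +/-, 35.8 RPM in Ras +/+ with USP28 and 27.1 RPM in Ras +/+. It was at 23.2 RPM in immortalized -/-, 29.6 RPM in immortalized +/- and 21.2 RPM in immortalized +/+. Ras -/- cells were again highest and Ras +/- cells lowest in the Ras set, while no such order held without Ras. Ddx58 was 5.94-fold higher in Ras -/- (log2 ratio 2.57, SE 0.23, adjusted p = 1.24e-26) and 1.58-fold lower in Ras +/- (log2 ratio -0.66, SE 0.24, adjusted p = 0.0207).

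Ifih1, the sensor MDA5, which binds long double-stranded RNA, was at 64.5 RPM in Ras -/-, 2.04 RPM in Ras +/-, 5.66 RPM in Ras +/+ with USP28 and 4.49 RPM in Ras +/+. In the immortalized set it was at 11.5 RPM in -/-, 6.22 RPM in +/- and 10.0 RPM in +/+. Ras groups followed the same order as for the other sensor. Ifih1 was 14.4-fold higher in Ras -/- (log2 ratio 3.84, SE 0.29, adjusted p = 4.11e-41) and 2.21-fold lower in Ras +/- (log2 ratio -1.14, SE 0.40, adjusted p = 0.0170).

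By count, 5 of the 8 tested members were called in Ras -/- against Ras +/+, all of them higher, beside 27.6% of all 15868 tested genes (15.2% higher). In Ras +/- against Ras +/+, 7 of 8 were called, 2 higher and 5 lower, beside 34.1% of 15950 genes (17.5% higher and 16.7% lower). The count in Ras +/- was 3 with the dispersion doubled and 4 at an adjusted p under 0.01. The share of all tested genes called at these 2 settings is not given here, so these counts cannot be set against it. With the USP28 vector, 0 of 8 were called, beside 1.09% of 15444 genes, and 0 had an unadjusted p under 0.05 in the authors' deposited table. The largest log2 ratio there was 0.40 for Ddx58 (95% interval -0.01 to 0.82). In immortalized -/- against +/+, 0 of 8 were called, beside 4.21% of 16727 genes, and in immortalized +/- against +/+ 0 of 8 were called, beside 8.25% of 17035 genes. In each of the 2 immortalized comparisons, 1 member (Stat2) had an unadjusted p under 0.05 in the authors' deposited table. Recomputing p from the fitted dispersion gave 0 called members in these 3 comparisons. That is no separate support, because the dispersion was fitted to the deposited p. The 3 Ras comparisons share the Ras +/+ libraries, and the 2 immortalized comparisons share the immortalized +/+ libraries.

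**Figure D2:**
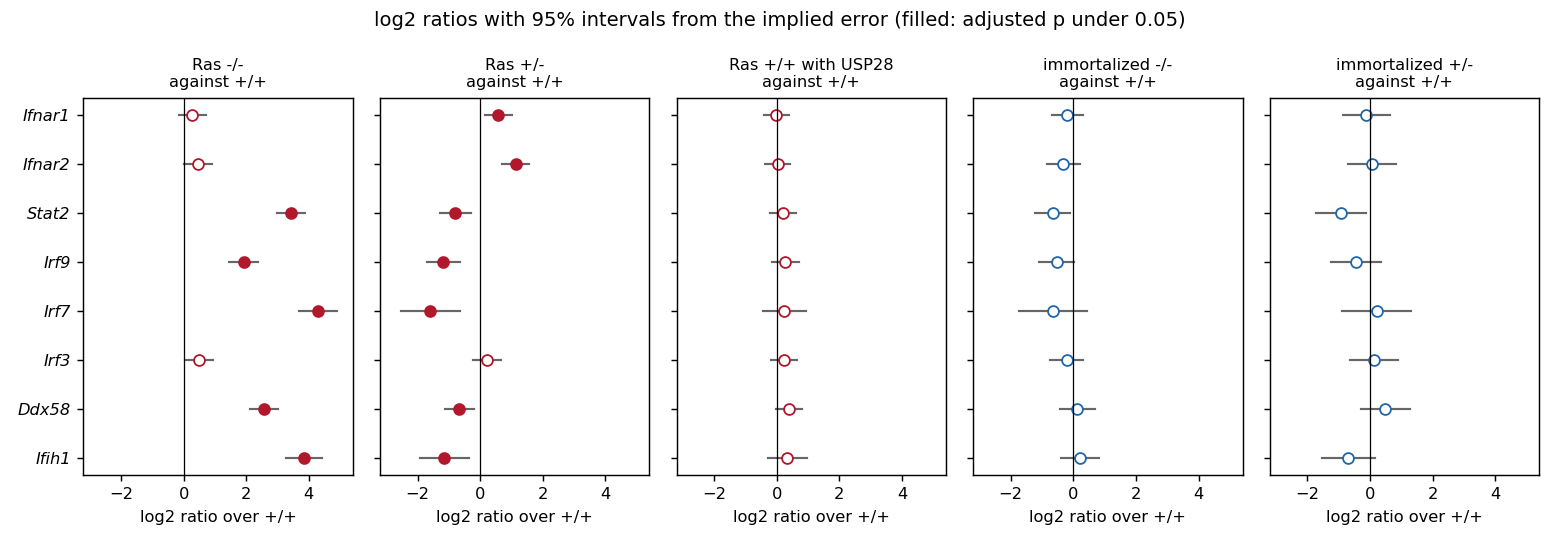
Log2 ratio of each tested group over its +/+ group (horizontal axis), by gene, with the 95% interval from the implied SE; filled points have an adjusted p under 0.05. In Ras -/- 5 points lie right of zero and are filled, in Ras +/- 5 filled points lie left and 2 right, and the other 3 panels hold open points.

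The Ras groups were also set against each other. The log2 ratios of both groups over +/+ were subtracted, and the difference was put to a Wald test, which is approximate here. Ras -/- exceeded Ras +/- in 5 of 8 members, beside 24.5% of 16107 genes called (12.8% higher). The log2 difference was 4.22 for Stat2 (SE 0.31), 3.08 for Irf9 (SE 0.33), 5.83 for Irf7 (SE 0.47), 3.23 for Ddx58 (SE 0.31) and 4.96 for Ifih1 (SE 0.40), with adjusted p of 1.74e-19 or less. Ifnar2 was lower in Ras -/- than in Ras +/- by a log2 difference of -0.68 (SE 0.30), which did not pass (adjusted p = 0.0852). Ras -/- exceeded Ras +/+ with USP28 in 5 of 8 members, beside 19% of 15816 genes called (11.8% higher). There the log2 difference was 3.23 for Stat2, 1.64 for Irf9, 4.04 for Irf7, 2.16 for Ddx58 and 3.50 for Ifih1. Within the Ras set, the 5 genes ran from high to low in the order -/-, +/+ with USP28, +/+ and +/-. The middle pair in that order, the USP28 and GFP groups of +/+ cells, gave a difference that passed the test in 0 of the 5 genes, and +/+ with USP28 was not tested against +/-.

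The log2 ratio of each mutant group over +/+ was then compared between the Ras set and the immortalized set. For -/- against +/+, the ratio was higher in the Ras set for 5 of 8 members, beside 20.7% of 15068 genes called (11.4% higher). The log2 ratio in the Ras set exceeded that in the immortalized set by 4.09 for Stat2 (SE 0.36), 2.45 for Irf9 (SE 0.37), 4.89 for Irf7 (SE 0.64), 2.44 for Ddx58 (SE 0.36) and 3.63 for Ifih1 (SE 0.42), with adjusted p of 1.82e-09 or less. For +/- against +/+, 0 of 8 members differed between the sets, beside 13.3% of 15211 genes. In that comparison 3 members had an unadjusted p under 0.05 in the Wald test. They were Irf7 (log2 difference -1.77, SE 0.74, adjusted p = 0.0998), Ifnar2 (1.08, SE 0.45, adjusted p = 0.0978) and Ddx58 (-1.15, SE 0.47, adjusted p = 0.0859). A lower level of Irf7 or Ddx58 in +/- cells was thus called in the Ras set and not shown to be particular to it. Between immortalized -/- and +/-, 0 of 8 members were called and 0 had an unadjusted p under 0.05 in the Wald test, beside 4.69% of 17007 genes called.

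**Figure D3:**
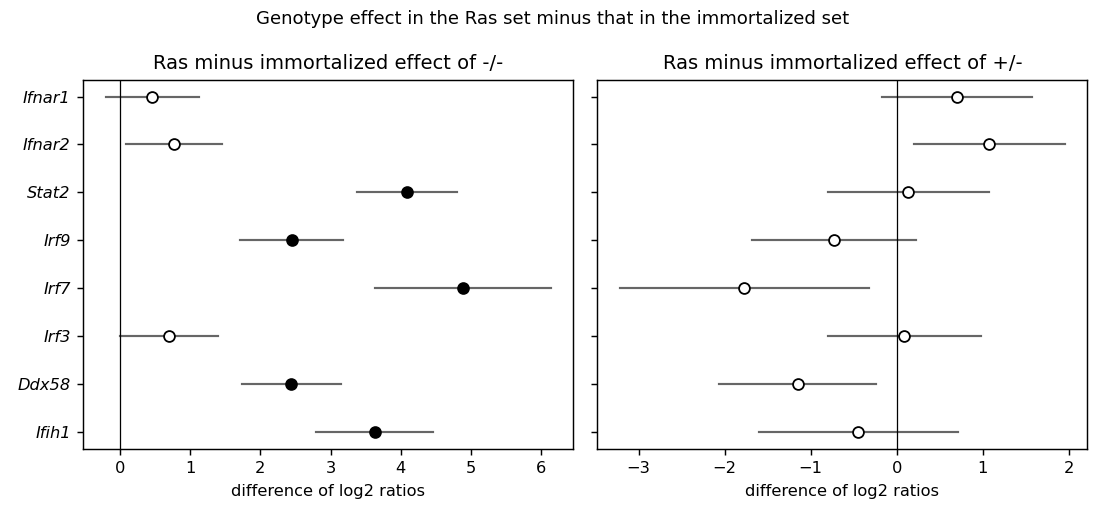
Ratio of a mutant group over +/+ in the Ras set, set against that in the immortalized set (difference of log2 ratios, horizontal axis), with 95% intervals. Filled points have an adjusted p under 0.05. On the left, for -/-, the filled points of Stat2, Irf9, Irf7, Ddx58 and Ifih1 lie between 2.44 and 4.89; on the right, for +/-, all points are open.

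Other measures also differed between the groups. Xist, the RNA that silences an X chromosome in female cells, was at 0.215 RPM in Ras -/-, 25.5 RPM in Ras +/-, 323.0 RPM in Ras +/+ with USP28 and 335.8 RPM in Ras +/+. The Y-linked gene Eif2s3y was at 22.4 RPM in Ras -/-, 0.151 RPM in Ras +/-, 0.0745 RPM in Ras +/+ with USP28 and 0 RPM in Ras +/+. In the immortalized set Xist was at 126.1 RPM in -/-, 296.0 RPM in +/- and 89.7 RPM in +/+, and Eif2s3y was at 14.9 RPM in -/-, 0 RPM in +/- and 18.6 RPM in +/+. Groups of both sets thus differ in sex-linked genes along with genotype, and genotype and the embryo or culture of origin cannot be told apart. The +/+ groups of the sets differ in these genes as well, so Ras and that origin cannot be told apart between the sets. The summed level of 5 epithelial markers was 1.36 RPM in Ras -/-, 1130 RPM in Ras +/-, 86.2 RPM in Ras +/+ with USP28 and 72.2 RPM in Ras +/+, and 68.4 RPM in immortalized -/-, 211.6 RPM in immortalized +/- and 50.4 RPM in immortalized +/+. In Ras +/- this sum was almost all keratin, with Krt8 at 465.5 RPM, Krt18 at 201.5 RPM and Krt19 at 460.5 RPM. Epcam had 1 read there and Cdh1 was at 2.65 RPM. The part of the sex-linked and epithelial markers in the interferon values was not tested. The summed level of 10 macrophage and leukocyte markers was 24.5 RPM in Ras -/-, 36.0 RPM in Ras +/-, 22.9 RPM in Ras +/+ with USP28 and 20.1 RPM in Ras +/+, with 5 of the 10 at 1 RPM or more in each of these groups. Of the 10, 2 had 0 reads in Ras -/-, 2 in Ras +/-, 3 in Ras +/+ with USP28 and 2 in Ras +/+. Csf1r was at 9.10 RPM in Ras -/-, 9.09 RPM in Ras +/- and 8.96 RPM in Ras +/+. Itgam was at 7.09 RPM in Ras -/-, 9.59 RPM in Ras +/- and 6.46 RPM in Ras +/+. Cd14 was at 3.87 RPM in Ras -/-, 10.0 RPM in Ras +/- and 1.59 RPM in Ras +/+. Cd68 was at 2.15 RPM in Ras -/-, 5.67 RPM in Ras +/- and 1.41 RPM in Ras +/+. Ptprc, which marks leukocytes, had 0 reads in Ras -/-, 1 in Ras +/- and 1 in Ras +/+, and Tyrobp had 0 reads in every Ras group. The part of such cells in the interferon values was not tested. In bulk RNA, fewer cells with a transcript and less of it per cell cannot be told apart.

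The genes around the members were taken from lists of the pathway. Among 13 genes of interferon signal transduction, 11 were tested in Ras -/- against Ras +/+. Of these 6 were higher and 0 lower, with a median log2 ratio of 0.58, beside 15.2% higher and a median of -0.01 over all tested genes. Usp18, which restrains the interferon receptor, was at 74.4 RPM in Ras -/- and 3.45 RPM in Ras +/+ (log2 ratio 4.43, SE 0.31, adjusted p = 2.88e-49). The factor Irf1 (log2 ratio 1.93) and the receptor kinase Tyk2 (0.95) were higher as well. Jak1, the other kinase of the receptor, was at 213.9 RPM in Ras -/- and 176.0 RPM in Ras +/+ and was not called.

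The same list in Ras +/- held 4 higher and 3 lower genes of 11 tested, with a median log2 ratio of 0.00, beside 34.1% called and a median of 0.01 over all tested genes. Usp18 was lower, at 0.378 RPM in Ras +/- and 3.45 RPM in Ras +/+ (log2 ratio -3.19, SE 0.69, adjusted p = 8.09e-07), and was tested only through its level in Ras +/+. Socs1, an inhibitor of receptor kinases, was lower too (log2 ratio -2.25). So was Jak1, at 117.2 RPM in Ras +/- and 176.0 RPM in Ras +/+ (log2 ratio -0.59, adjusted p = 0.0187). Irf1 was higher, at 53.1 RPM in Ras +/- and 10.2 RPM in Ras +/+ (log2 ratio 2.37, SE 0.25, adjusted p = 8.50e-20), and so was Tyk2 (log2 ratio 1.52). Irf1 and Tyk2 were thus higher in both mutant groups of the Ras set, while Usp18 was higher in -/- and lower in +/-. The list gave 0 calls with USP28, with 0 of 11 genes at an unadjusted p under 0.05 in the authors' deposited table. Socs1 was its only call of 10 tested in immortalized -/-, beside 4.21% of all tested genes called. Socs1 was lower there, at 5.82 RPM in -/- and 12.7 RPM in +/+ (log2 ratio -1.13). In immortalized +/- 2 of 11 tested were called, beside 8.25% of all tested genes. These were Socs1, lower at 3.29 RPM in +/- and 12.8 RPM in +/+, and Socs3, also lower (log2 ratio -1.25).

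Of 12 further genes of RNA sensing, all 12 were tested in Ras -/-, where 6 were higher and 1 lower (median log2 ratio 0.59). Beside this, 27.6% of all tested genes were called (15.2% higher). Dhx58, the third RIG-I-like receptor (LGP2), was at 14.5 RPM in Ras -/- and 1.25 RPM in Ras +/+ (log2 ratio 3.54, SE 0.44, adjusted p = 3.07e-18). Zbp1, a sensor of Z-form nucleic acid, was at 6.66 RPM in Ras -/- and 0.616 RPM in Ras +/+ (log2 ratio 3.44, SE 0.59, adjusted p = 5.14e-11), and was tested only through its level in Ras -/-. Rnf135, the ubiquitin ligase of RIG-I (1.77), and the endosomal RNA receptor Tlr3 (1.61) were also higher. The lower gene was Mavs, the adaptor of both member sensors, at 33.5 RPM in Ras -/- and 53.4 RPM in Ras +/+ (log2 ratio -0.67, SE 0.23, adjusted p = 0.0139). In Ras +/- 4 of 11 tested genes were called, a share near the 34.1% of all tested genes. Rnf135 was higher (1.72), and 3 were lower: the helicase Dhx36 (-1.19), the kinase Eif2ak2 (PKR, -0.76) and the RNA editor Adar (-0.59). In immortalized -/- Dhx36 was the only call among 11 tested genes of the list, beside 4.21% of all tested genes. It was higher there (log2 ratio 0.84, adjusted p = 0.0465).

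Of 10 genes of cytosolic DNA sensing, 3 were higher and 1 lower in Ras -/- (median log2 ratio 0.41), beside 27.6% of all tested genes called. Ifi204 (1.66) and Aim2 (1.35), sensors of the HIN-200 family, and the nuclease Trex1 (0.88) were higher, and Rnaseh2a, a subunit of ribonuclease H2, was lower (-0.68). In Ras +/- 4 were higher and 2 lower, beside 34.1% of all tested genes called. Cgas, the enzyme that makes a second messenger on binding DNA, was at 0.0756 RPM in Ras +/- (1 read) and 40.1 RPM in Ras +/+ (456 reads). Its log2 ratio was -9.05, with a 95% counting interval of -14.36 to -6.57 and an adjusted p of 6.35e-62, and it was tested only through its level in Ras +/+. Cgas was at 39.5 RPM in Ras -/-. Tmem173 (STING), which binds that messenger, was higher at 47.4 RPM in Ras +/- and 10.2 RPM in Ras +/+ (log2 ratio 2.21, SE 0.25, adjusted p = 3.70e-17). Rnaseh2a (0.71) and the helicase Ddx41 (0.69) were higher too.

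**Figure D4:**
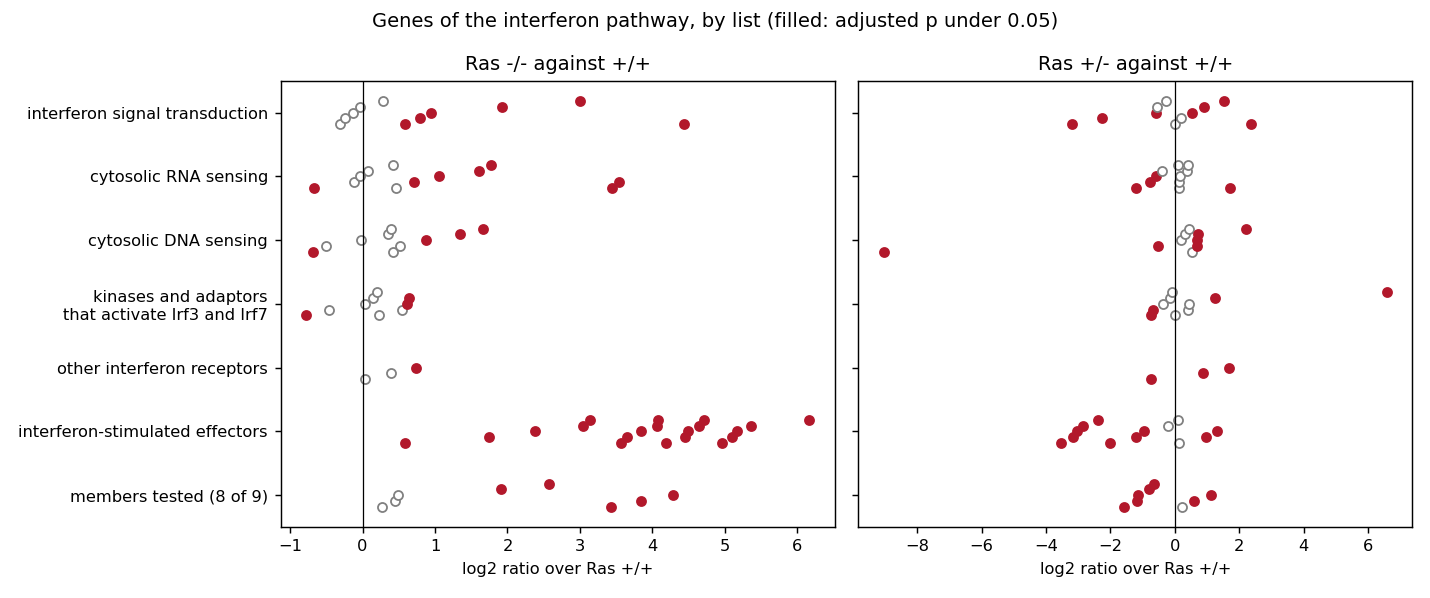
Log2 ratio over Ras +/+ of every tested gene of the pathway lists in Ras -/- (left) and Ras +/- (right); filled points have an adjusted p under 0.05, and vertical offsets within a list carry no meaning. The effectors lie right of zero on the left panel and mostly left of zero on the right panel; Ifnlr1 and Oas1a, each with 0 reads in a group of the Ras +/- comparison, have no finite ratio and are not drawn.

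Among 10 kinases and adaptors that activate Irf3 and Irf7, 9 were tested in Ras -/-, with 2 higher and 1 lower (median log2 ratio 0.19), a share near the 27.6% of all tested genes called. The kinase Tbk1 was at 88.7 RPM in Ras -/- and 56.8 RPM in Ras +/+ (log2 ratio 0.64, adjusted p = 0.0159). The Toll-like receptor adaptor Myd88 was higher (0.62) and the adaptor Tank was lower (-0.78). In Ras +/- all 10 were tested, with 2 higher and 2 lower, near the 34.1% of all tested genes called. The scaffold Tbkbp1 was at 8.53 RPM in Ras +/- (113 reads) and 0.0878 RPM in Ras +/+ (1 read), a log2 ratio of 6.60 with a 95% counting interval of 4.10 to 11.92. It was tested only through its level in Ras +/-. The kinase Ikbke was higher (1.25), and the adaptors Azi2 (-0.75) and Traf6 (-0.67) were lower.

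Among the receptors of other interferons, Ifngr2, a chain of the interferon gamma receptor, was higher in Ras -/- (log2 ratio 0.74, adjusted p = 0.00723), as 1 of 3 tested, beside 27.6% of all tested genes called. In Ras +/- 3 of 4 were higher and 1 lower, beside 34.1% of all tested genes called. Ifnlr1, the specific chain of the interferon lambda receptor, was at 9.57 RPM in Ras +/- (126 reads) against 0 reads in Ras +/+. This makes it 36.3-fold higher against 3 reads summed over the Ras +/+ libraries, with the 126 reads taken as exact. It too was tested only through its level in Ras +/-. Ifngr2 (1.68) and Il10rb (0.87), which pairs with Ifnlr1, were higher, and Ifngr1 was lower (-0.73).

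In the other 3 comparisons with +/+, 1.09% (USP28 vector), 4.21% (immortalized -/-) and 8.25% (immortalized +/-) of all tested genes were called. With the USP28 vector, 0 genes were called among 12 tested of RNA sensing, 10 of DNA sensing, 9 kinases and adaptors and 3 receptors, where 1, 1, 0 and 0 genes had an unadjusted p under 0.05 in the authors' deposited table. In immortalized -/- 0 genes were called among 9 tested of DNA sensing, 10 kinases and adaptors and 3 receptors, where 2, 3 and 0 had such a p. In immortalized +/- 0 genes were called among 11 tested of RNA sensing, 9 of DNA sensing, 10 kinases and adaptors and 4 receptors, where 0, 0, 0 and 2 had such a p.

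Interferon-stimulated effectors are the antiviral products of the pathway. In Ras -/- 20 of 21 listed effectors were tested and all 20 were higher, with a median log2 ratio of 4.13, beside 15.2% higher over all tested genes. For 4 of the 20, the level was under 1 RPM in Ras +/+, so that they were tested only through their level in Ras -/-. Oas2, a double-stranded RNA-dependent synthetase, was at 83.1 RPM in Ras -/- and 1.16 RPM in Ras +/+ (log2 ratio 6.17, SE 0.44). The ubiquitin-like protein Isg15 (5.10), Oasl2 (4.65) and Ifit1 (4.45) followed in the strength of the test. In Ras +/- 14 were tested, with a median log2 ratio of -1.61. Of these, 9 were lower and 2 higher, beside 16.7% lower and 17.5% higher over all tested genes. For 6 of the 9 lower genes the level was under 1 RPM in Ras +/-, so that they were tested only through their level in Ras +/+. Bst2, which tethers virus particles to the cell surface, was at 7.64 RPM in Ras +/- and 40.3 RPM in Ras +/+ (log2 ratio -2.40, SE 0.26). Oasl2 (-3.55) and Ifit1 (-2.86) were lower. Oas1a had 0 reads in Ras +/- against 25 reads in Ras +/+. This is 9.63-fold lower if 3 reads are allowed in Ras +/- and the 25 reads are taken as exact. The 2 higher effectors were Gbp2 (1.32) and Parp14 (0.95). The effectors gave 0 calls in the USP28 comparison (16 tested, 4 with an unadjusted p under 0.05 in the authors' deposited table). They also gave 0 calls in immortalized -/- (12 tested, 2 with an unadjusted p under 0.05 in the authors' deposited table) and in immortalized +/- (12 tested, 0 with such a p). Genes of the Oas, Ifit, Mx and Gbp families have close relatives to which the authors' counting may have assigned some reads.

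The genes most like Irf7 and Stat2 were those with the smallest root mean square difference of log2 ratios over the 5 comparisons with +/+, among 15330 genes of at least 1 RPM in both tables. For Irf7 the median of this distance was 2.12. The nearest were the effector Ifit3 at 0.32, the phospholipase Plcg2 at 0.46, the actin regulator Lmod1 at 0.49, Apol9b at 0.56 and Ifit1 at 0.65. For Stat2 the median was 1.73. The nearest were Lgals3bp, a secreted galectin-binding protein, at 0.16, Gm45753 at 0.37, the kinase Map2k6 at 0.40, the NADPH oxidase organiser Noxo1 at 0.46 and the lipid droplet protein Plin4 at 0.48. These distances rest on 5 comparisons with 2 shared +/+ groups and are a description only.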

How the data were processed

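Per the submitters' processing notes, the tools were CASAVA, FastQC, Bowtie 0.12.8 and edgeR, with the genome build mm9; the unit and strand of counting are not given in the sources used here. The authors deposited 1 table per set. Per the file headers, each comparison with +/+ holds a log2 concentration, a log2 ratio with +/+ on top, and a p-value, and the Ras table also holds the authors' adjusted p-value.

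From these, group levels in RPM were rebuilt (with Python 3.11.15, numpy 2.4.6 and scipy 1.17.1), and the sign of each ratio was changed to put +/+ below. With depths read from the steps of 1 read, 80.2% to 100% of low values (up to 20 reads) lay within 0.1 of a whole read. The deposited p-values were adjusted by Benjamini and Hochberg's method over genes with a mean of at least 1 RPM, and called under 0.05. The common dispersion fitted to the deposited p amounts to a coefficient of variation of 12.6% to 14.4% in the Ras set and 21.2% to 32.4% in the immortalized set. Genes that vary more than the typical gene have standard errors that are too small. Differences between comparisons were tested with a Wald test with 0.5 reads added per group. Where 2 comparisons share +/+, the dispersions of both entered the error of each group, since the share of +/+ in them is unknown. Levels were not tested between the 2 tables, which were normalized apart. Counting intervals (exact, 95%) cover counting error only. Limits from 3 reads cover the counting error of the group with 0 reads only. The likeness measure used ratios with 0.5 reads added. The scripts were tested on simulated data.

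Members and lists were chosen with earlier results of these data known. Named list genes are up to 4 per list with the smallest adjusted p, of which 1 is not reported here; Jak1, Mavs and the level of Cgas in Ras -/- were added after their values were seen. Exon overlaps come from GENCODE M21 (GRCm38), and promoter sequences from RefSeq (GRCm38.p6), not from the build of the files. Alternatives were no filter, a filter at 5 RPM, an adjusted p under 0.01, median-centred ratios, a doubled dispersion, 1 read added, the authors' adjusted p, and p recomputed from the fitted dispersion, which was added after the data were seen. The recomputed p is not a separate check, because its dispersion was fitted to the deposited p.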

Additional observations from a re-analysis of the deposited data

Results flagged for a closer look

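A log2 ratio of -/- over +/+ that differs between the Ras set and the immortalized set was found for 5 members. It was called by the Wald test of the difference itself, beside 20.7% of 15068 genes called (11.4% higher). The log2 ratio of -/- over +/+ in the Ras set exceeded that in the immortalized set by 4.09 for Stat2, 2.45 for Irf9, 4.89 for Irf7, 2.44 for Ddx58 and 3.63 for Ifih1. In the Ras set all 5 were higher in -/-, while in the immortalized set their log2 ratios ran from -0.66 (Stat2) to 0.20 (Ifih1) and none passed the test. Xist, which marks female cells, was at 0.215 RPM in Ras -/- and 335.8 RPM in Ras +/+, and at 126.1 RPM in immortalized -/- and 89.7 RPM in immortalized +/+. The part of Xist in the difference between the sets was not tested. Genotype and the embryo or culture of origin cannot be told apart in these groups. The +/+ groups of both sets also differed from each other in the Y-linked gene Eif2s3y, at 0 RPM in Ras +/+ and 18.6 RPM in immortalized +/+. Between the sets, Ras and the embryo or culture of origin thus cannot be told apart either. Values of single libraries were not analysed here, and no library could be examined for standing apart from its group.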

How the results depend on the processing

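The counts of called members kept their size within 1.5 times under every alternative run, with 1 exception, the Ras +/- comparison. There 7 members were called, against 4 with an adjusted p under 0.01 and 3 with the dispersion doubled. Shares of all tested genes called under the alternatives are not given here, so these counts describe the members only. With the dispersion doubled, Stat2, Ifnar1, Ddx58 and Ifih1 lost their calls in Ras +/- (adjusted p of 0.0582, 0.161, 0.124 and 0.0504). With the authors' adjusted p, 6 were called, and with a filter at 5 RPM 5 were called, because Irf7 and Ifih1 were then not tested. Of 455 values of single members under an alternative, 447 kept their direction and side of the threshold, 8 lost the call and 0 reversed, and all 8 were in Ras +/-. In Ras -/- against Ras +/+, 5 members were called under each of the alternatives run, and the log2 ratio of Irf7 ranged from 4.27 to 4.29. No paired analysis was possible because the tables hold comparisons of groups and no values of single libraries; leaving out each replicate could not be run for the same reason. The depth limits Ifnb1 most, which had at most 1 read in a group.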

Other observations

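NF-kappaB is the other transcription factor that the sensors activate, and a list of 8 of its subunits, inhibitors and targets was described in the same way. In Ras -/- all 8 were tested, 3 were higher and 1 lower, with a median log2 ratio of 0.06, beside 27.6% of all tested genes called. Tnfaip3 (A20), an inhibitor of NF-kappaB, was at 31.3 RPM in Ras -/- and 114.3 RPM in Ras +/+ (log2 ratio -1.87, SE 0.22, adjusted p = 3.97e-15). Relb (0.66) and the chemokines Ccl5 (1.65) and Cxcl10 (0.81) were higher. In Ras +/- 7 were tested, with Nfkb2 higher (0.91) and Cxcl10 lower (-1.51), beside 34.1% of all tested genes called. In immortalized +/- 6 were tested and Tnfaip3 was the only call, beside 8.25% of all tested genes. Tnfaip3 was at 51.3 RPM in +/- and 18.1 RPM in +/+ (SE of the log2 ratio 0.40, adjusted p = 0.00360). The list gave 0 calls with USP28 (8 tested, 0 with an unadjusted p under 0.05 in the authors' deposited table). It also gave 0 calls in immortalized -/- (6 tested, 0 with such a p).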
